A study of Mus musculus with 6 samples.

Results

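The first steps of B cell development were followed through 9 genes in lineage-negative mouse bone marrow of 2 strains. They fall into 3 groups by function. Rag1, Rag2 and Dntt encode enzymes of antigen receptor gene recombination, Vpreb1, Vpreb3 and Igll1 encode the surrogate light chain and a related protein, and Cd79a, Cd79b and Blnk encode receptor signalling chains and an adaptor. The 9 were chosen by name out of 18193 named genes on the array, as every probe set of the expression array whose gene symbol in the platform annotation, or a current synonym, is one of these 9 genes. That gave 13 of the 45037 probe sets on the array, 12 of them with a single gene and 1 that Vpreb1 shares with its close relative Vpreb2. Expression was measured on 6 Affymetrix arrays, with 3 biological replicates of C57B/L6, a standard inbred laboratory strain, and 3 of B.D(Chr5), whose genetic background the labels give as B.D. All mice were adult females of 6 to 16 weeks, and no treatment other than the difference in strain is named. Cells carrying mature blood lineage markers had been removed to leave stem and progenitor cells. Whether a replicate was 1 mouse or a pool is not stated, so the spread given here is between samples.

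As background, a developing B cell builds its immunoglobulin heavy chain by cutting and joining V, D and J gene segments. The RAG1 and RAG2 proteins together make the cuts, and terminal deoxynucleotidyl transferase, encoded by Dntt, adds untemplated bases at the joints. The new heavy chain is then tested on the cell surface with the surrogate light chain, made of VpreB and lambda 5 (Igll1), and with the signalling chains Ig-alpha (Cd79a) and Ig-beta (Cd79b), while the adaptor BLNK carries the signal onward. Dntt, Rag1 and Rag2 are also used by developing T cells. None of the 9 genes lies on chromosome 5, for which the second strain is named. In the RefSeq annotation of GRCm38.p6, Rag2 and Rag1 are neighbouring protein-coding genes on chromosome 2, Igll1 and Vpreb1 on chromosome 16, and Blnk and Dntt on chromosome 19, while Cd79a lies on chromosome 7, Vpreb3 on chromosome 10 and Cd79b on chromosome 11.

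The promoters of the 8 members that have a RefSeq window are shown, since 7 of them, all but Dntt, shared a high signal on 1 array. Each window holds the 150 bases before the RefSeq transcription start (GRCm38.p6), written 5′ to 3′ on the gene's own strand. Capitals mark matches, on either strand, to the octamer ATTTGCAT, known as the binding sequence of POU-domain factors in immunoglobulin promoters, and to TGTGGT, the core bound by RUNX factors.
Rag1, chr2:101649533-101649682, minus strand: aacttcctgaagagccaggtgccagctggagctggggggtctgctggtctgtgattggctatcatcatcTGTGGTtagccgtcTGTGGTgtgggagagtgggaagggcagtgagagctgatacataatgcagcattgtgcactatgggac
Rag2, chr2:101624562-101624711, plus strand: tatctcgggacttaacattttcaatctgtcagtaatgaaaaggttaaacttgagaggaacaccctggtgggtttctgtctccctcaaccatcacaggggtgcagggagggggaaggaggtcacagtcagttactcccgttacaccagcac
Dntt, chr19:41029125-41029274, plus strand: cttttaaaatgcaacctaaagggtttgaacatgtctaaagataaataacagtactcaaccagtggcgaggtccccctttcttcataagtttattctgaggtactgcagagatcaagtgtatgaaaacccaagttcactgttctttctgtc
Vpreb1, chr16:16869256-16869405, minus strand: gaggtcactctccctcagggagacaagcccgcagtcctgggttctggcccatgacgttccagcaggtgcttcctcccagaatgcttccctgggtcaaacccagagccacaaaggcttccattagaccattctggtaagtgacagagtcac
Vpreb3, chr10:75948150-75948299, plus strand: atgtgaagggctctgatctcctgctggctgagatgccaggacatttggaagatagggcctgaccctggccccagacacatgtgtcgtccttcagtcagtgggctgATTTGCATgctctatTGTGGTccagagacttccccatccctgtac
Igll1, chr16:16863986-16864135, minus strand: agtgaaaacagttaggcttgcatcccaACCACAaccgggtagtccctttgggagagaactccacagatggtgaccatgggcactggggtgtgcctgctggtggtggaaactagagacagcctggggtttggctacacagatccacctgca
Cd79a, chr7:24897347-24897496, plus strand: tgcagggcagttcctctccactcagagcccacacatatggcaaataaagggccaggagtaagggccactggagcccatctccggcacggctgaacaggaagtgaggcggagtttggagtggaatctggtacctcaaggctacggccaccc
Blnk, chr19:40994222-40994371, minus strand: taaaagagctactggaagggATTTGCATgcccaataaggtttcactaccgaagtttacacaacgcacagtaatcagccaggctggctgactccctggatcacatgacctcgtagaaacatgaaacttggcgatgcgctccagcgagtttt

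The search covered the 250 bases before the start of the 8 members with a RefSeq window. The octamer was found in 2 of 8, Vpreb3 and Blnk, against 1.6% of 32851 windows of the same length over all genes. TGTGGT was found in Rag1, with 2 matches, Vpreb3 and Igll1, 3 of 8 against 14% of all windows. In Rag1 the more distant TGTGGT overlapped an E-box, CANNTG, which every one of the 8 windows held, against 66.2% of all. The core CCCNNGGG of the early B cell factor motif was found in Igll1 alone, against 11.8% of all windows, and TATAAA in 0 of 8, against 12.4%. Of the 7 genes that shared the high array, 4 held an octamer or TGTGGT and 3, Rag2, Vpreb1 and Cd79a, held neither, as did Dntt. Whether the matches go with that array cannot be told, since Dntt alone of the 8 lacked the high signal. The motifs were chosen after the sequences had been seen. A match describes letters and is not evidence of binding.

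One array stood apart from the others before any member was considered. Across the tested probe sets, which are no substitute for replicates, Pearson's r of the log2 signals was between 0.974 and 0.979 for the 5 pairs that include B.D(Chr5) replicate 3, and between 0.980 and 0.987 for the other 10 pairs. That array also had the smallest share of probe sets above the bacterial control probe sets, 63.3% against 64.8% to 71.2% on the others. The bacterial control level itself was highest on that array, at 38.0 against 21.8 to 31.8. So was the median signal, at 79.5 against 65.0 to 70.3, so the small share came with a raised control level. Its 3' to 5' signal ratio of actin, 1.20, lay within the range of the other arrays, 1.14 to 1.21. B.D(Chr5) replicate 3 gave the highest signal of the 6 arrays for 21.5% of the 22518 tested probe sets, and a signal over 1.5 times the highest of the other 5 arrays for 3.43%. The progenitor markers Kit, Flt3, Cd34, Gata2 and Meis1 were above the bacterial controls on all 6 arrays. The strain differences of the members and the medians of the gene lists below are therefore given with and without B.D(Chr5) replicate 3. In RNA from a mixed preparation, fewer cells of a type and less RNA per cell cannot be told apart.

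No tested member differed between the strains past the threshold. Of the 12 single-gene probe sets, 11 were bright enough to be tested, and 0 of the 11 had an adjusted p under 0.05 in limma (Benjamini-Hochberg over all tested probe sets), where 0.182% of all tested probe sets were called. At an unadjusted limma p under 0.05 there were 3 of 11, those of Vpreb1, Igll1 and Cd79a, against 4.75% of all tested probe sets. The 3 B.D(Chr5) arrays all lay above the 3 C57B/L6 arrays for 3 of the 11, those of Vpreb1, Vpreb3 and Igll1, against 4.16% of all, and all lay below for 0 of 11, against 5.24%. On 8 of the 11, 1 for each gene but Dntt, B.D(Chr5) replicate 3 was the highest array and exceeded 1.5 times the highest of the others.

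**Figure D1:**
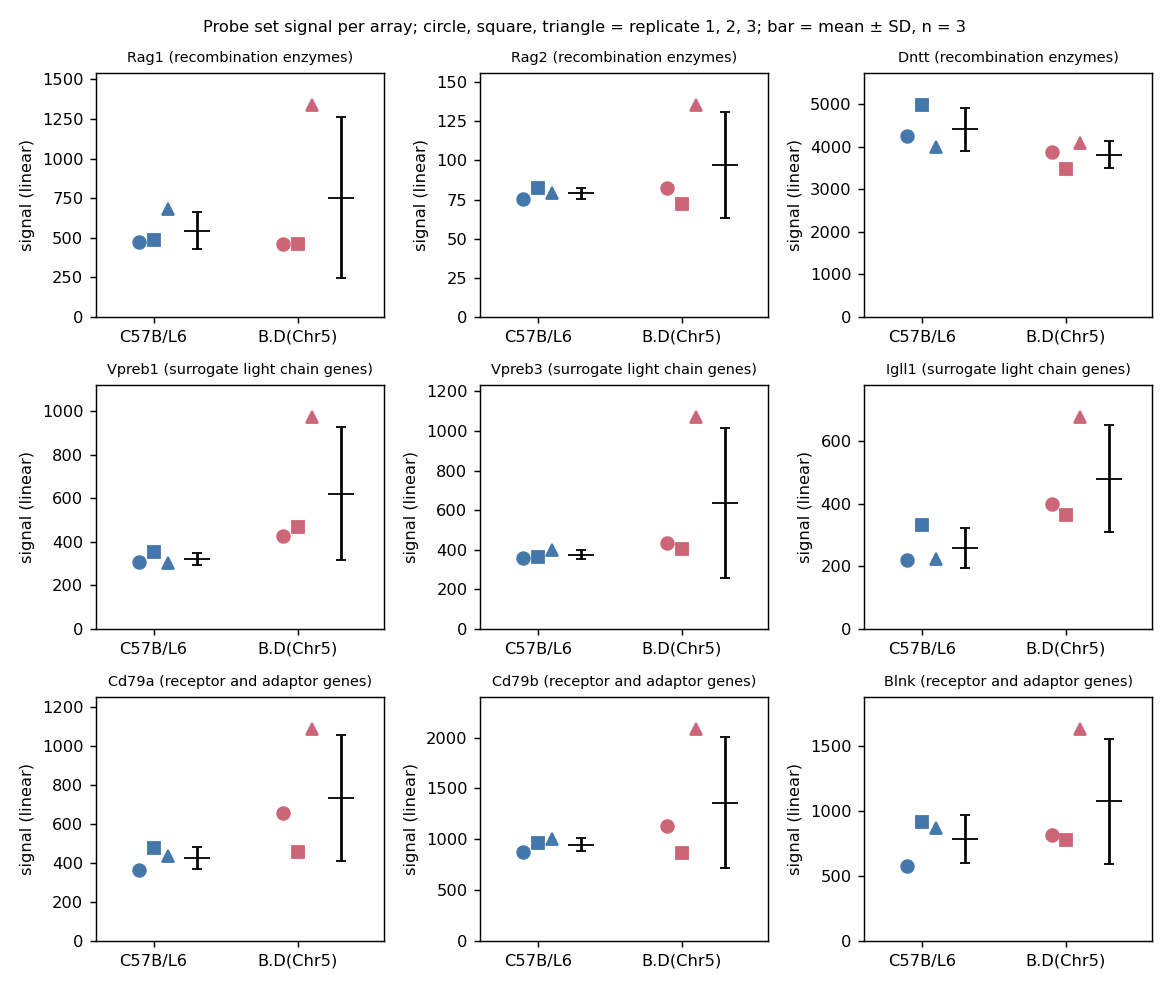
Signal on a linear scale (vertical axis, from 0) on each of the 6 arrays for the brightest probe set of each gene, blue for C57B/L6 and red for B.D(Chr5), with the symbol showing the replicate number and the bar the mean ± SD of 3 arrays. The triangle of B.D(Chr5) stands above every other point for 8 genes, and for Dntt it lies among the C57B/L6 points.

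The 3 recombination enzymes were not alike across the arrays. Rag1 read 471, 484 and 679.7 in C57B/L6 replicates 1, 2 and 3, and 458, 463 and 1338 in B.D(Chr5) replicates 1, 2 and 3. The first pair of B.D(Chr5) arrays thus lay just below the lowest C57B/L6 array, and the third lay 1.97 times above the highest of all others. The strain means were 545 ± 117 and 753 ± 507 (SD, n = 3 each). Rag1 had a log2 difference, B.D(Chr5) minus C57B/L6, of 0.29 with a 95% interval from -0.52 to 1.09 (limma adjusted p = 1.00), and of -0.22 without B.D(Chr5) replicate 3.

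Rag2, whose protein is the partner of RAG1 in the recombinase, was dim, with a mean at the 53.7th percentile of all probe sets, close to the limit of the upper 50% that were tested. It read 75.3, 82.6 and 79.0 in C57B/L6 and 82.7, 72.4 and 135 in B.D(Chr5), all above the bacterial controls. Again 2 of the B.D(Chr5) arrays lay close to the C57B/L6 arrays and replicate 3 stood 1.64 times above the highest other array. The log2 difference was 0.21 with a 95% interval from -0.35 to 0.77 (limma adjusted p = 1.00), and -0.023 without that array.

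Dntt behaved differently from both. Its brightest probe set read 4249, 4974 and 3992 in C57B/L6 and 3882, 3467 and 4082 in B.D(Chr5), with means of 4405 ± 509 and 3810.4 ± 314 (SD, n = 3 each). The strains overlapped, and B.D(Chr5) replicate 3 was 0.821 times the highest of the other arrays. The log2 difference was -0.21 with a 95% interval from -0.43 to 0.020 (limma adjusted p = 1.00), and -0.26 without B.D(Chr5) replicate 3. A second Dntt probe set, whose suffix _x_at marks probes that may also match other transcripts, read 3218, 4243 and 2459.5 in C57B/L6 and 3337, 3471 and 3127 in B.D(Chr5), a log2 difference of 0.036 (0.077 without B.D(Chr5) replicate 3). The remaining one read 295, 344 and 416 against 257, 316 and 301, a log2 difference of -0.25 (-0.27 without that array). On none of the 3 Dntt probe sets was B.D(Chr5) replicate 3 the highest array. The enzymes as a group had a median log2 difference of 0.21, against 0.00025 over all tested probe sets, and without B.D(Chr5) replicate 3 the median turned to -0.22.

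The surrogate light chain genes had the largest median of the 3 groups. Vpreb1, which encodes the variable-like part of the surrogate light chain, read 308, 354 and 303 in C57B/L6 and 426, 467 and 974 in B.D(Chr5). All 3 B.D(Chr5) arrays lay above all C57B/L6 arrays, replicate 3 by far the most. The means were 322 ± 28.1 and 622 ± 305 (SD, n = 3 each), and the log2 difference was 0.82 with an SE of 0.27 and a 95% interval from 0.22 to 1.42 (limma adjusted p = 0.839). Without B.D(Chr5) replicate 3 it was 0.46. The probe set shared by Vpreb1 and Vpreb2 read 173, 231 and 131 in C57B/L6 and 232, 160.4 and 362 in B.D(Chr5), so the strains overlapped there, with a log2 difference of 0.42 (0.14 without B.D(Chr5) replicate 3). Its signal cannot be assigned to either gene.

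Igll1 encodes lambda 5, the constant-like part of the surrogate light chain. Its one tested probe set, an _x_at set, read 221, 331 and 224 in C57B/L6 and 399.7, 364 and 676 in B.D(Chr5). The strains did not overlap, and the nearest pair of arrays, C57B/L6 replicate 2 and B.D(Chr5) replicate 2, were 331 and 364. The means were 258 ± 62.5 and 480.2 ± 171 (SD, n = 3 each), and the log2 difference was 0.83 with an SE of 0.24 and a 95% interval from 0.28 to 1.37 (limma adjusted p = 0.695), or 0.56 without B.D(Chr5) replicate 3. Since lambda 5 resembles the immunoglobulin lambda constant regions, the source of an _x_at signal is uncertain. The other Igll1 probe set was not tested: it lay between 2.58 and 18.7 and stood above the bacterial control level on 0 of the 6 arrays, so it gives no level for the gene.

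Vpreb3 encodes a VpreB-like protein that binds newly made receptor chains inside the cell. It read 358, 363 and 399.9 in C57B/L6 and 434, 402 and 1070.3 in B.D(Chr5). B.D(Chr5) replicate 2 was only just above C57B/L6 replicate 3, while B.D(Chr5) replicate 3 was 2.47 times the highest other array, the largest such ratio among the members. The log2 difference was 0.60 with a 95% interval from -0.096 to 1.29 (limma adjusted p = 1.00), and 0.15 without B.D(Chr5) replicate 3. The group had a median log2 difference of 0.82 over its 3 genes, and 0.46 without B.D(Chr5) replicate 3, where the median over all tested probe sets was -0.0064. For Vpreb1, Vpreb3 and Igll1 the exact two-sided permutation p over arrays was 0.1, the smallest that this number of arrays can reach.

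**Figure D2:**
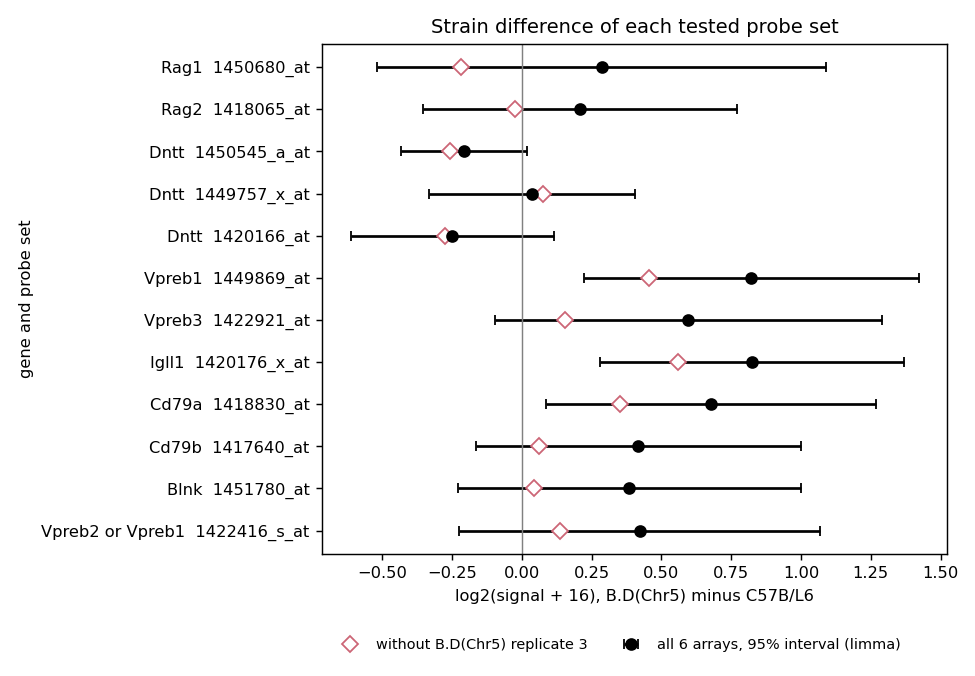
Difference between the strains in log2(signal + 16), B.D(Chr5) minus C57B/L6 (horizontal axis), for each of the 11 tested single-gene probe sets and the one shared by Vpreb1 and Vpreb2, with 95% intervals from limma (black) and the value without B.D(Chr5) replicate 3 (open diamonds). The intervals of Vpreb1, Igll1 and Cd79a lie above 0 before adjustment for multiple testing, and the diamonds lie nearer 0 than the black points for every surrogate light chain, receptor and adaptor gene.

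Among the receptor and adaptor genes, Cd79a, which encodes the Ig-alpha signalling chain, read 364, 477 and 438 in C57B/L6 and 655, 454 and 1088 in B.D(Chr5). B.D(Chr5) replicates 1 and 3 lay above all C57B/L6 arrays and replicate 2 lay among them. The means were 426 ± 57.3 and 732 ± 324 (SD, n = 3 each). The log2 difference was 0.68 with an SE of 0.26 and a 95% interval from 0.086 to 1.27 (limma adjusted p = 0.967), and 0.35 without B.D(Chr5) replicate 3.

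Cd79b, which encodes Ig-beta, the partner of Ig-alpha, read 873, 965 and 1000.2 in C57B/L6 and 1129, 862 and 2085 in B.D(Chr5). As for Cd79a, replicate 2 was the lowest and replicate 3 the highest of the B.D(Chr5) arrays. The log2 difference was 0.42 with a 95% interval from -0.16 to 1.00 (limma adjusted p = 1.00), and 0.062 without B.D(Chr5) replicate 3. Blnk, whose product links the receptor to downstream enzymes, read 577, 914 and 869 in C57B/L6 and 815, 778 and 1633 in B.D(Chr5). Here replicates 1 and 2 of B.D(Chr5) fell inside the C57B/L6 range and replicate 3 stood 1.79 times above the highest other array. The log2 difference of Blnk was 0.38 with a 95% interval from -0.23 to 1.00 (limma adjusted p = 1.00), and 0.044 without B.D(Chr5) replicate 3. The 3 genes had a median log2 difference of 0.42, and 0.062 without that array.

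**Figure D3:**
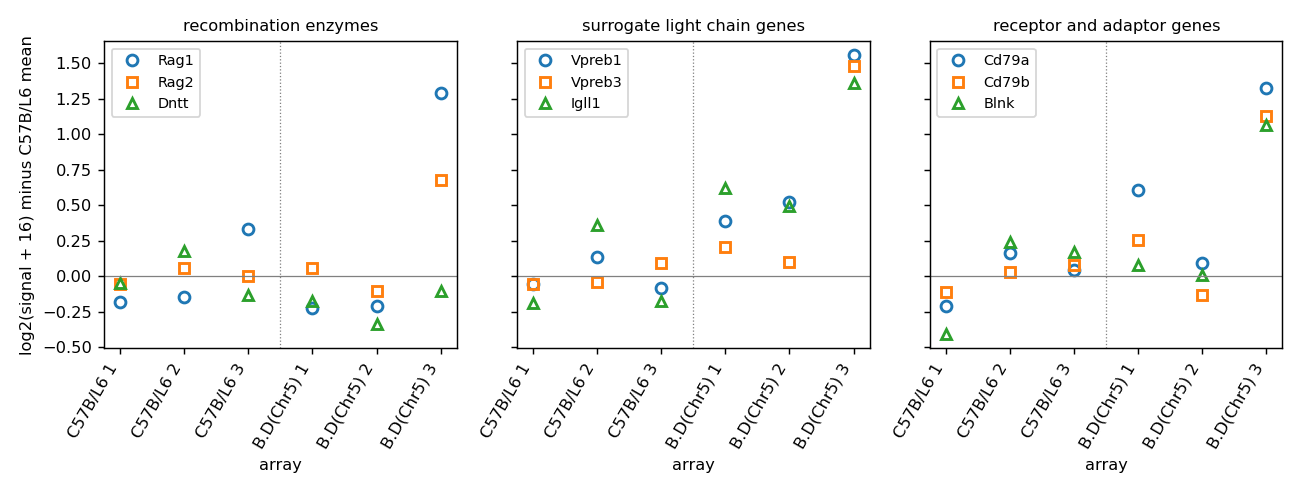
Log2(signal + 16) of each member's brightest probe set on each array (horizontal axis, replicate number after the strain), minus the gene's C57B/L6 mean (vertical axis), in 1 panel per group. On B.D(Chr5) replicate 3 the surrogate light chain genes averaged 1.46 and the receptor and adaptor genes 1.17 above the C57B/L6 mean, while Dntt lay below it.

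Averaged over its genes and set against the C57B/L6 mean, the surrogate light chain group lay 0.41, 0.37 and 1.46 higher on the log2 scale on B.D(Chr5) replicates 1, 2 and 3, with an SD of 0.13 among the C57B/L6 arrays. The receptor and adaptor group gave 0.31, -0.0075 and 1.17, with an SD of 0.21. The recombination group gave -0.11, -0.22 and 0.62, with an SD of 0.084. On replicates 1 and 2 of B.D(Chr5), then, the surrogate light chain group was above every C57B/L6 array, the highest of which stood at 0.15. The recombination group was below every C57B/L6 array, the lowest of which stood at -0.095. On replicate 1 that gap was smaller than the SD of the group among the C57B/L6 arrays. Rag2 was not below them on replicate 1, at 82.7 against 82.6 on the highest C57B/L6 array. Dntt entered by its brightest probe set. Its second probe set read 3337 and 3471 on B.D(Chr5) replicates 1 and 2, inside the C57B/L6 range of 2459.5 to 4243. Whether the groups differ from each other was not tested.

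The 3 lists of genes that act with the members were read in the same fit, and 0 of their genes were called in either direction. Of 11 tested transcription factor and cytokine receptor genes of the B lineage, 6 had positive log2 differences, with a median of 0.00083 (-0.078 without B.D(Chr5) replicate 3). Each was read by its brightest probe set, and 0 of these had an unadjusted limma p under 0.05. The other Il7r probe set had an unadjusted limma p of 0.015, with a log2 difference of -0.43 with all arrays (limma adjusted p = 0.871). Among the brightest probe sets the smallest p values were those of Pou2af1, a B cell coactivator, and Spi1, the gene of PU.1. Their log2 differences were 0.61 and 0.28 (limma adjusted p = 1.00 for both). Without B.D(Chr5) replicate 3 these were 0.16 and 0.19. B.D(Chr5) replicate 3 exceeded 1.5 times the highest other array for 3 of the 11, named here after their values were seen. The brightest probe set of Ebf1, a founding factor of the B lineage, read 129, 162 and 153 in C57B/L6 and 120.4, 120.0 and 349 in B.D(Chr5). Its log2 difference of 0.21 turned to -0.26 without replicate 3. The other tested Ebf1 probe sets had log2 differences of 0.43, 0.34 and 0.32 with all arrays. Spib and Pou2af1 were also highest on replicate 3, at 2.37 and 2.43 times the highest other array. Their log2 differences did not turn sign without it, at 0.13 and 0.16. Ikzf1 and Tcf3, which are used more widely in blood progenitors, had log2 differences of 0.00083 and 0.027 (0.016 and 0.047 without that array). On B.D(Chr5) replicate 3, Ikzf3, Il7r, Foxo1 and Bcl11a of the list were 0.774, 0.804, 0.893 and 0.741 times the highest other array. In all, that array was the highest for 4 of the 11. Pax5, too dim to be tested, was 0.999 times the highest other array there.

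Of 12 tested genes of pre-B cell receptor signalling, 9 were positive, with a median of 0.11 that turned to -0.071 without B.D(Chr5) replicate 3, and 0 had an unadjusted p under 0.05. By brightest probe set, the smallest limma p values were those of Cd72, an inhibitory B cell receptor, and Blk, a Src-family B cell kinase. Their log2 differences were 0.20 and 0.32 (limma adjusted p = 1.00 for both). Both turned sign without B.D(Chr5) replicate 3, to -0.061 for Cd72 and -0.22 for Blk. Other tested probe sets of Syk and Cd22 ranked ahead of these genes, with log2 differences of 0.24 and 0.40 with all arrays. Blk, Cd72 and Prkcb were the 3 of 12 for which B.D(Chr5) replicate 3 exceeded 1.5 times the highest other array. Bank1, Pik3ap1, Cd22 and Syk were 1.42, 1.34, 1.25 and 1.06 times the highest other array there. Btk, Plcg2, Pik3cd, Vav1 and Grb2 were below it. In all, that array was the highest for 7 of the 12. Of 11 tested partners in recombination and end joining, 7 were positive, with a median of 0.022 (-0.033 without B.D(Chr5) replicate 3), and replicate 3 exceeded 1.5 times the others for 0 of 11. At an unadjusted limma p under 0.05 there was 1 of these, Lig4, the ligase that seals broken ends, with a log2 difference of 0.41, or 0.29 without that array (limma adjusted p = 1.00 with all arrays). Xrcc5, which encodes the end-binding protein Ku80, had -0.30, or -0.29 without it (limma adjusted p = 1.00 with all arrays).

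Markers of other cells also moved with B.D(Chr5) replicate 3. All 4 tested mature B cell markers of 7 listed were highest on that array. Ms4a1, which encodes CD20, read 164, 206 and 261 in C57B/L6 and 304, 224 and 1113 in B.D(Chr5), 3.67 times the highest other array. The summed signal of the 6 measured mature B markers was 2609.9 to 3082 in C57B/L6 and 2514 to 4379.9 in B.D(Chr5), with replicate 3 the highest. The median log2 difference of the 4 tested was 0.082, and -0.11 without that array. Cr2 and Fcer2a of that list were above the bacterial controls on 2 and 3 of the 6 arrays. All 6 tested neutrophil markers were highest on the same array as well, and their summed signal was 41097.5 to 45678 in C57B/L6 and 49401 to 68134 in B.D(Chr5), where replicate 3 was again the highest. Their median log2 difference was 0.41, and 0.22 without that array. The part of these cells in the members' values was not tested.

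The other marker lists had other forms. Of 7 tested T and NK cell markers, 0 were highest on B.D(Chr5) replicate 3 and the median log2 difference was -0.41 (-0.43 without that array), with Cd4 below the bacterial controls on every array. The sum over the 8 measured was 3640.3 to 5410.5 in C57B/L6 and 3279 to 4618 in B.D(Chr5). The 5 plasma cell markers summed to 19666 to 20381 in C57B/L6 and 21963 to 27269 in B.D(Chr5), where replicate 3 had the lowest sum. Jchain, the brightest of them, read 11022 on that array, its lowest value. All 5 had positive log2 differences, with a median of 0.28 (0.34 without replicate 3), and 2 of the 5, Sdc1 and Mzb1, were highest on replicate 3. Mzb1 had a log2 difference of 0.66, or 0.55 without that array (limma adjusted p = 0.274 with all arrays). Of 5 plasmacytoid dendritic cell markers 1 was highest on replicate 3, and of the 3 erythroid, 5 stem and progenitor and 3 stromal markers tested, 0 were. The stromal markers Cxcl12, Col1a1 and Lepr were nevertheless higher in B.D(Chr5) on average, with a median log2 difference of 0.97 (1.08 without replicate 3), larger than that of any member group. All 3 had an unadjusted limma p under 0.05 and 0 were called, and the summed signal of the 4 measured was 352 to 1215 in C57B/L6 and 1146 to 1871 in B.D(Chr5). Their part in the members' values was not tested either.

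**Figure D4:**
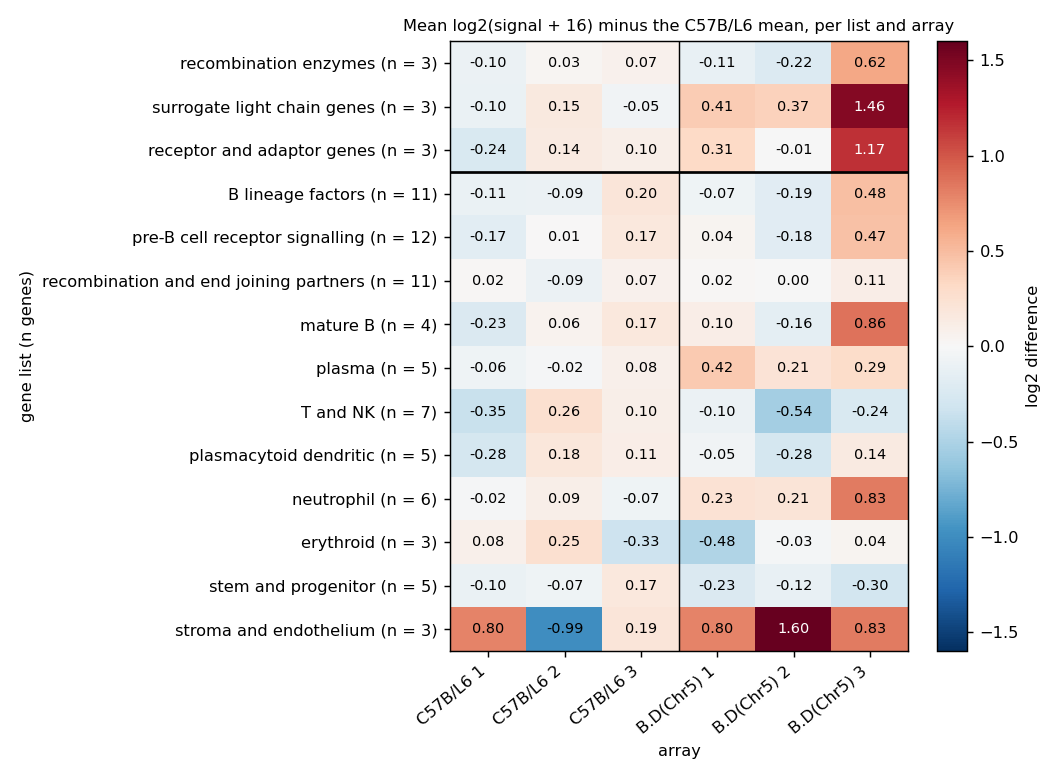
Mean log2(signal + 16) of each gene list on each array minus its mean in C57B/L6, as numbers and colour (red higher, blue lower), for the 3 member groups above the black line and the context and marker lists below it, with the number of genes in parentheses. On B.D(Chr5) replicate 3 the mature B list stood at 0.86 and the neutrophil list at 0.83, and the end joining partners stood at 0.11. In the mature B list only Ms4a1 exceeded 1.5 times the highest other array.

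The genes outside the members whose profiles over the 6 arrays came nearest were found by the root mean square distance between centred log2 values, among tested probe sets with at least 0.5 of the SD of the group's profile. For the surrogate light chain group they were Srpk3 at 0.081, Atp1b1 at 0.13 and Irf4 at 0.14, where its own members lay at 0.065 to 0.15. For the receptor and adaptor group they were Atp1b1 at 0.080, Gda at 0.094 and Itgam at 0.099, with members at 0.084 to 0.12. For the recombination group they were Paip1 at 0.030, Lynx1 at 0.031 and Dscc1 at 0.032, nearer to the mean profile than any member, at 0.073 to 0.29. Atp1b1 was likewise nearer to the mean profile of the receptor and adaptor group than any of its members. Atp1b1, a sodium pump subunit gene, read 408, 503.4 and 503.3 in C57B/L6 and 572, 491 and 1233 in B.D(Chr5). With 6 arrays and so many probe sets, near profiles are easily found, and the distances are given as a description.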

How the data were processed

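RNA of 6 samples was measured on 6 one-colour arrays. The deposited table gives a linear intensity for each probe set, computed by the authors in MAS5 according to the submitters' processing notes (settings not given in the sources used here), and the values show a mean of 500.003 on each array after trimming 2% at each end. The 64 control probe sets were left out, and 45037 remained. Genes were named through Entrez identifiers in the RefSeq annotation of GRCm38.p6. Listed genes without a probe set assigned to that gene alone were not analysed here.

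Intensities were turned into log2(signal + 16), and the upper 50% by mean, 22518 probe sets, were fitted in limma 3.58.1 (R 4.3.3; lmFit, eBayes with trend, strain as the only term, two-sided) with Benjamini-Hochberg adjustment and a threshold of 0.05. The fit was tested on simulated data. Differences on this scale understate those of dim probe sets. The brightest probe set stands for a gene in medians. Bacterial control levels are the 95th percentile of 27 probe sets per array. The number of arrays limits the precision.

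The members and lists were chosen with earlier results of these data known. Named are all members, and in each context list the called genes or else the 2 of smallest limma p by brightest probe set. Also named are the 3 nearest profiles per group, and genes singled out after their values were seen. Alternatives were the pseudocount, the filter, the normalization, eBayes without trend, the replicate block, the mean over probe sets and each array left out.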

Additional observations from a re-analysis of the deposited data

How the results depend on the processing

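The count of 0 called members held in all 13 alternatives, and adjusted limma p values of single members ranged from 0.136 to 1.00. Over all tested probe sets the 41 calls became 67 with median centring, 25 without the eBayes trend and 27 with the replicate number as a block, and lay between 21 and 73 with 1 array left out. Of 117 combinations of a member gene and an alternative, 115 kept their direction. The 2 that did not were Rag1, at -0.22, and Rag2, at -0.023, both without B.D(Chr5) replicate 3. With 1 array left out, the log2 difference ranged from -0.22 to 0.54 for Rag1 and from -0.023 to 0.37 for Rag2. The median log2 difference then ranged from -0.22 to 0.37 for the recombination enzymes, from 0.46 to 0.97 for the surrogate light chain genes and from 0.062 to 0.69 for the receptor and adaptor genes, the lowest value coming without B.D(Chr5) replicate 3 each time. Deviations of same-numbered arrays from their strain means correlated at -0.11, -0.20 and 0.20. Of the 6 arrays 2, both numbered 3, correlated best with their own number. With deviations centred over 3 arrays per strain, these values cannot tell whether the numbers pair the arrays. Scaling moved the median of all tested probe sets by no more than 0.012 on the log2 scale (-0.012 with median centring). Rag2, near the limit of the filter, and the dim Igll1 probe set are the members whose signal over background limits what can be read.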

Other observations

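Some genes of lymphoid progenitors, singled out from the fixed lists after their values were seen, are given as values. Il7r, the interleukin 7 receptor gene, read 1602, 1931 and 2466 in C57B/L6 and 1466, 1543 and 1984 in B.D(Chr5), with a log2 difference of -0.25 (limma adjusted p = 1.00) and of -0.38 without B.D(Chr5) replicate 3. Flt3, a cytokine receptor gene of multipotent and lymphoid progenitors, read 2397, 2745 and 3197 in C57B/L6 and 1929, 2627 and 2257 in B.D(Chr5), with a log2 difference of -0.29 with and without that array (limma adjusted p = 1.00 with all arrays). Ccr9, a chemokine receptor gene, had a log2 difference of -0.54 by its brightest probe set, an _x_at set, or -0.64 without B.D(Chr5) replicate 3. On B.D(Chr5) replicate 3 that probe set was 0.582 times the highest other array. The other tested Ccr9 probe sets had log2 differences of -0.34 and -0.23 with all arrays. Ly6d, a surface marker of lymphoid progenitors biased to the B lineage, was highest on replicate 3, with 921, 816 and 1500.5 in B.D(Chr5) against 699, 1079.9 and 967 in C57B/L6, and replicate 3 was 1.39 times the highest other array. Lef1, a transcription factor gene, was also highest there, at 243, 1.39 times the highest other array. Of these 5 genes 0 were called.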
